A study of Mus musculus with 12 samples.

Results

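Transcript levels of 10 genes of the lipopolysaccharide (LPS) receptor, the cell-surface Toll-like receptors and their adaptors were followed in a mouse macrophage line. The genes were taken by name, Tlr4, Cd14, Ly96, Tlr2, Tlr5, Tlr6, Ticam1, Ticam2, Myd88 and Tirap, and all 10 were among the 11762 genes of the deposited table and among the 11745 tested. The cells were J774A.1, a macrophage-like tumour line from a BALB/c mouse, and polyadenylated RNA was sequenced from 4 groups of 3 biological replicates. Control cells were mock-treated (labelled untreated), MP cells received microparticles, LPS cells received lipopolysaccharide, and LPS+MP cells received both. All libraries came from this 1 line, and the sources used here give no dose, exposure time or particle composition, and do not say whether the replicates were separate cultures, so p-values measure the spread between these libraries.

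LPS is the glycolipid that coats Gram-negative bacteria. It is handed by CD14, a lipid-anchored surface protein, to MD-2 (the product of Ly96), which sits on the outer domain of TLR4, and the bound complex dimerizes. At the plasma membrane TLR4 signals through the sorting adaptor TIRAP and MyD88 towards NF-kB and MAP kinases. After uptake into endosomes it signals through TRAM (the product of Ticam2) and TRIF (the product of Ticam1) towards interferon regulatory factors. TLR2 pairs with TLR6 or TLR1 to detect bacterial lipopeptides, and TLR5 detects flagellin.

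Levels are in CPM, in which every library is scaled to the same total and gene length is not taken into account; the depth per library is unknown. Changes are log2 fold changes on the log2(CPM + 1) scale ± SE, and p-values are those of limma, adjusted by Benjamini-Hochberg over all genes tested. The words rose and fell, and called, stand for an adjusted p under 0.05 together with a change over 1 (2-fold); higher and lower, beside a p, stand for an adjusted p under 0.05 and a smaller change. The 3 comparisons with control share the control libraries. Groups that do not overlap have every library of 1 above every library of the other, which was common over all genes tested. It held for 59% of them in MP, 64.3% in LPS and 77.7% in LPS+MP, each against control. In LPS+MP it held for 43.8% against LPS and 68.6% against MP.

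LPS replicate 2 stood apart from the other LPS libraries. It differed from their mean by over 1 (log2) in 339 genes, and its difference correlated with transcript GC content at a Spearman rho of -0.60 over 11638 genes, which share the library and are not independent. Among the receptor genes it was 0.69 lower in Cd14 (transcript GC 52.5%) and higher by 0.46 in Ly96 (38.9%), 0.44 in Tlr4 (39.4%) and 0.38 in Tlr6 (45.6%). Each change of the 10 genes that uses the LPS group is therefore given with and without it, and for the wider lists the calls with LPS, and in LPS+MP against LPS, that changed without it are named. The median SD of a gene (log2) was 0.191 in LPS, 0.0845 in control, 0.0983 in MP and 0.0863 in LPS+MP. The model used 1 spread for the 4 groups. The SE of comparisons without LPS cells thus also carried the spread of the LPS libraries. The macrophage identity of the line held in the table: all 10 macrophage markers were listed, and their summed level was 6256 to 6924 CPM in control, 6249 to 6672 in MP, 7119 to 7795 in LPS and 5150 to 5432 in LPS+MP. Of the B cell and epithelial markers 0 of 5 each were listed, and the 2 of 8 neutrophil markers listed summed to at most 6.04 CPM in any library. Some markers of other cells moved with treatment at low levels. Lck, 1 of 6 T cell markers, was at 3.57 to 4.09 CPM in control, 9.62 to 10.1 in MP, 9.11 to 11.48 in LPS and 9.43 to 10.7 in LPS+MP. Pdgfra, 1 of 5 fibroblast markers, was at 1.00 to 1.64 CPM in control, 1.99 to 2.35 in MP, 7.67 to 10.8 in LPS and 6.90 to 7.97 in LPS+MP. Zbtb46, 1 of 6 dendritic cell markers, was at 3.54 to 4.34 CPM in control, 6.29 to 8.64 in MP, 4.33 to 5.48 in LPS and 5.37 to 6.39 in LPS+MP. The 3 of 5 endothelial markers listed summed to 18.8 to 21.5 CPM in control, 14.6 to 17.2 in MP, 7.96 to 15.6 in LPS and 7.42 to 10.7 in LPS+MP. They did not move together. Vwf, the largest part of the sum, had a mean of 17.4 CPM in control and 6.24 in LPS. Pecam1 went the other way, from 0.626 to 4.18 CPM, and Cdh5 was at 2.06 and 2.07. The part of these markers in the results was not tested.

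With LPS, 4 of the 10 genes were called, against 16.3% of all genes tested. Tlr2, Ticam2 and Cd14 rose and Tlr5 fell, and 9 of 10 had an adjusted p under 0.05 whatever the size of the change, against 62.1% of all genes. With MP alone 1 was called, Ticam2, which rose (3.67% of all genes called), and 4 had an adjusted p under 0.05 (38.9%). With both agents against control 5 were called (20.8%), with Tlr4 joining Tlr5 among those that fell, and 9 had an adjusted p under 0.05 (66.3%). Between LPS+MP and MP cells 3 were called (13.6%), Tlr2 and Cd14 up and Tlr5 down, and 8 had an adjusted p under 0.05 (55.6%). Between LPS+MP and LPS cells limma called 0 of 10 (4.52%), with 6 at an unadjusted p under 0.05 and 5 at an adjusted p under 0.05 (35.2%). Without LPS replicate 2 the last count was 3 of 10, against 40.5% of all genes. Of those 5 differences, that of Tlr4 kept an adjusted p under 0.05 in all 15 alternative analyses, while Tlr6, Ly96, Ticam1 and Tlr5 lost it in 2, 4, 6 and 7 of them. The median change of the 10 genes was 0.72 with LPS, where the median over all genes was -0.08, and -0.04 with MP alone, where it was 0.02.

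**Figure D1:**
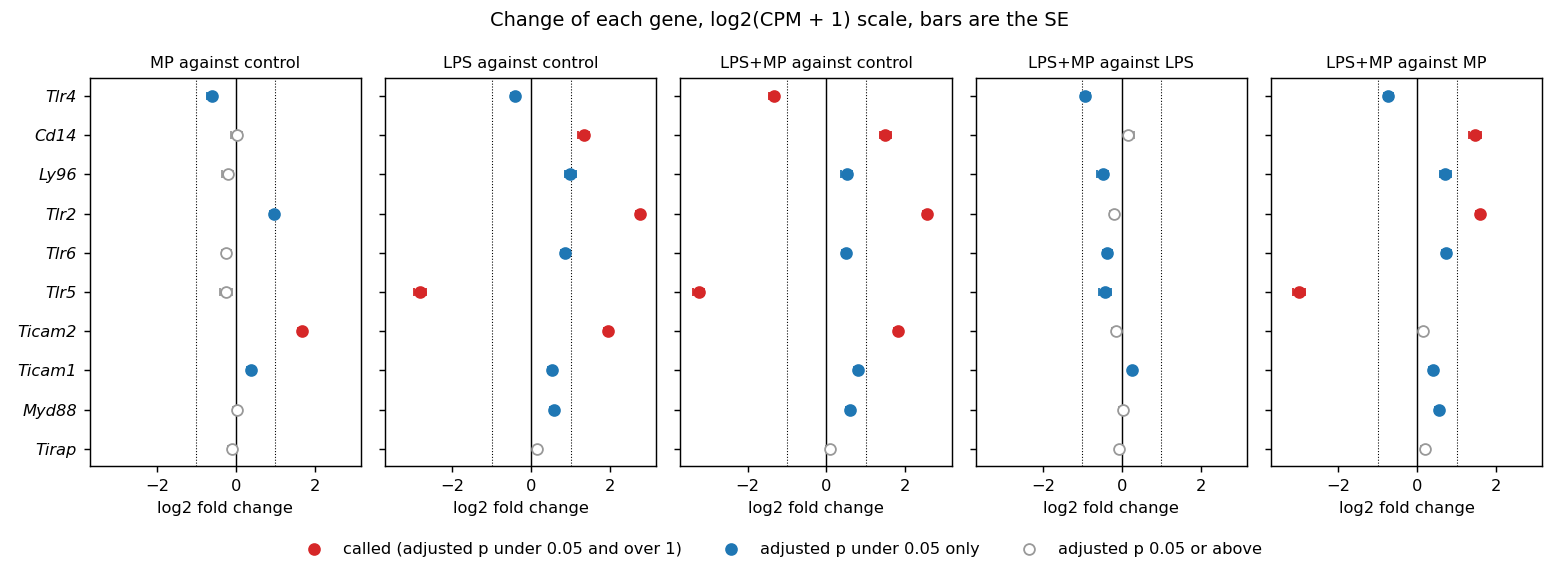
Change of each of the 10 genes (rows) in 5 comparisons (panels), as log2 fold change on the log2(CPM + 1) scale with its SE; dotted lines mark a change of 1, and colour marks the call. Tlr2 and Tlr5 lie farthest from 0 with LPS, at 2.77 and -2.83, while Ticam2 is the 1 gene past the dotted line with MP alone, at 1.68.

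Tlr4, the signalling receptor for LPS, was the 1 member of the receptor complex that was lower in every treated group. Its gene lies on chromosome 4 (66827584 to 66930284, plus strand, in the coordinates of the table). Control libraries held 72.3, 73.1 and 75.6 CPM of Tlr4, MP libraries 47.9, 44.5 and 51.8, LPS libraries 50.9, 67.9 and 48.7, and LPS+MP libraries 28.7, 28.7 and 28.0. The control group was above all others and the LPS+MP group below all others, while the MP and LPS groups overlapped. Tlr4 was lower with MP at -0.61 ± 0.11 (adjusted p = 0.000356) and lower with LPS at -0.41 ± 0.11 (adjusted p = 0.00337). It fell with both agents, at -1.34 ± 0.11 (adjusted p = 1.82e-08), which is a mean of 28.5 ± 0.436 CPM (SD, n = 3) against 73.7 ± 1.74. Against LPS cells, LPS+MP cells were lower at -0.93 ± 0.11 (adjusted p = 7.26e-06), just short of the size threshold, which was passed without LPS replicate 3 (-1.02). Without LPS replicate 2, the library with the highest Tlr4 of its group, that difference was -0.79 and the difference of LPS from control was -0.56.

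Cd14, the surface protein that passes LPS to the receptor, went the other way with LPS. On chromosome 18 (36725074 to 36726736, minus strand), it stood at 459, 449.6 and 522 CPM in control, 477, 491 and 483 in MP, 1476, 869 and 1339 in LPS, and 1323, 1342 and 1351 in LPS+MP. Control and MP overlapped, LPS and LPS+MP overlapped, and each of the latter was above each of the former. Cd14 rose with LPS by 1.33 ± 0.14 (adjusted p = 6.69e-07), and by 1.56 without LPS replicate 2, its lowest LPS library. Cd14 rose by 1.49 ± 0.14 with both agents against control (adjusted p = 1.33e-07). The change with MP was 0.02 ± 0.14 in the absence of LPS (adjusted p = 0.916) and 0.16 ± 0.14 in its presence (adjusted p = 0.394; -0.07 without LPS replicate 2).

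Ly96, whose product MD-2 binds the lipid itself, was also higher with LPS but at a much lower level. Its gene is on chromosome 1 (16688456 to 16709605, plus strand). Ly96 was at 12.4, 10.5 and 9.30 CPM in control, 9.66, 8.34 and 9.54 in MP, 21.1, 27.8 and 18.9 in LPS, and 17.4, 14.6 and 14.9 in LPS+MP. The LPS group was above LPS+MP and that above the other two, which overlapped. The change with LPS was 0.99 ± 0.14 (adjusted p = 2.22e-05), at the edge of the size threshold. It was over 1 in 6 alternative analyses, 1.10 with quantile normalization among them, and 0.84 without LPS replicate 2. LPS+MP cells were lower in Ly96 than LPS cells, at -0.49 ± 0.14 (adjusted p = 0.016), and at -0.34 (adjusted p = 0.0395) without LPS replicate 2.

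**Figure D2:**
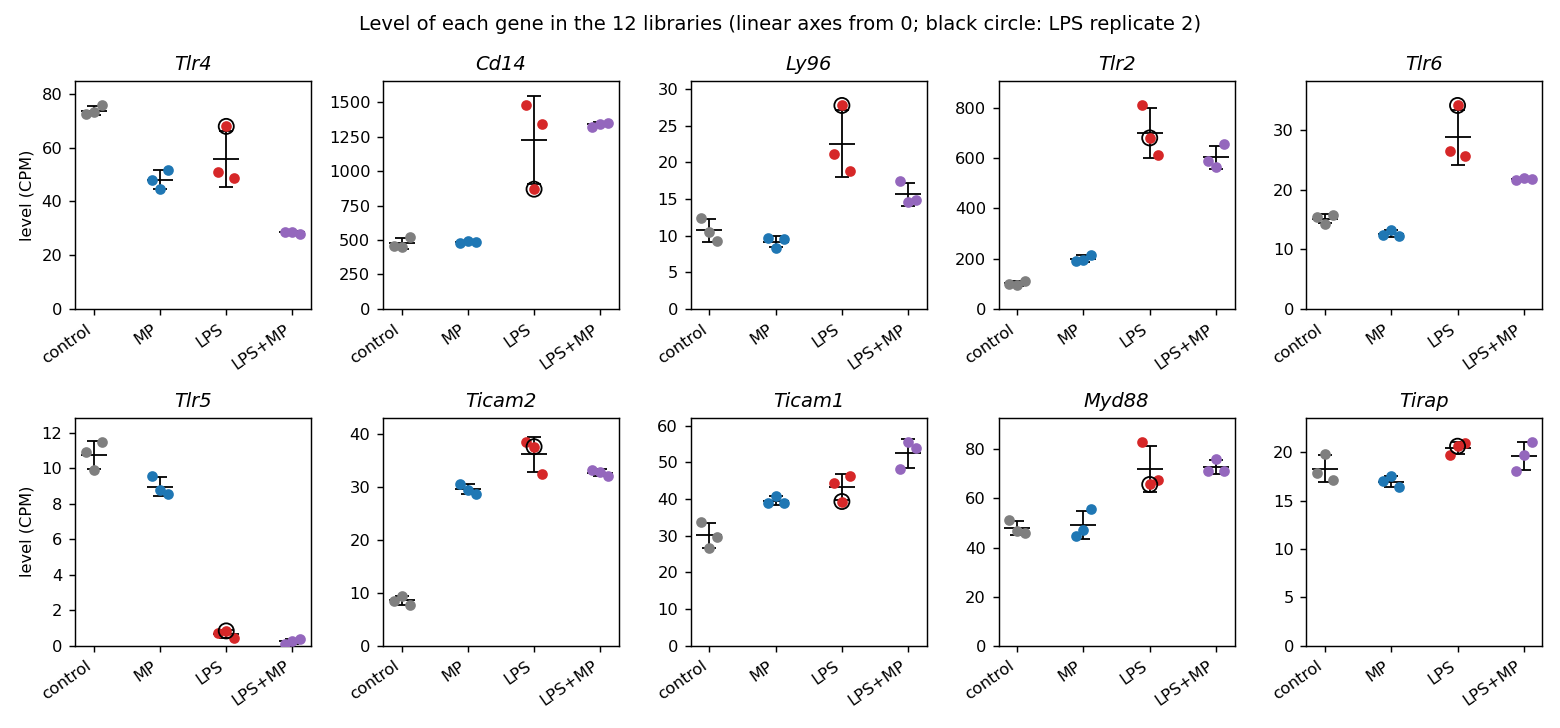
Level in CPM (vertical axes, linear from 0, a scale per gene) of each gene in the 12 libraries, with the mean and SD of each group in black and LPS replicate 2 circled. The LPS+MP libraries hold 28.0 to 28.7 CPM of Tlr4, below the other 9 libraries, and the LPS and LPS+MP libraries hold under 1 CPM of Tlr5.

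Among the other surface receptors, Tlr2 and Tlr5 had the largest changes of the 10 genes with LPS, in opposite directions. The 250 bases before the RefSeq start of each (GRCm38.p6) are shown because the pair moved apart; capitals mark matches on either strand to the NF-kB motif, the interferon-stimulated response element (a pair of GAAA half-sites, 2 bases apart), AP-1 (TGANTCA), PU.1 (GAGGAAGT) or C/EBP (TTGCNNAA).
Tlr2 (chr3:83841609-83841858, minus strand): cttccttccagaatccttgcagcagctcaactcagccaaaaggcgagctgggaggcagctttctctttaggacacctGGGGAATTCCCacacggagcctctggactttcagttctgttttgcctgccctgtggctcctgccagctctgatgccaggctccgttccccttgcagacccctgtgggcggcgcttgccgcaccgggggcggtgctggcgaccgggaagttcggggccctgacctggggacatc
Tlr5 (chr1:182954538-182954787, plus strand): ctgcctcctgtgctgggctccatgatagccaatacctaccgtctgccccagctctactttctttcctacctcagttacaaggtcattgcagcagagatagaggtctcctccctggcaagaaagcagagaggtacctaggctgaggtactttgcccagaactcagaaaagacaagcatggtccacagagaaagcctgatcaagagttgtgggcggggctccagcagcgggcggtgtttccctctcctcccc
The Tlr2 sequence held 2 overlapping matches to the NF-kB motif, 173 to 163 bases before the start, and none of the other motifs; the Tlr5 sequence held none of the 5. Of 32851 RefSeq windows of this length, 7.25% held the NF-kB motif, 2.98% the interferon element, 6.75% AP-1, 2.44% PU.1 and 9.56% C/EBP. The RefSeq start of Tlr2 lies 159 bases inside the start of the deposited table, and that of Tlr5 is the same base. A match describes letters in this window and not binding.

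Tlr2, which detects lipopeptides, lies on chromosome 3 (83836273 to 83841767, minus strand). Its level was 98.3, 94.6 and 111 CPM in control, 189.6, 196 and 214 in MP, 809, 679.8 and 613 in LPS, and 589.7, 564 and 654 in LPS+MP. Control was lowest, MP next, and the LPS and LPS+MP groups, which overlapped, were above both. Tlr2 rose with LPS by 2.77 ± 0.10 (adjusted p = 2.17e-12), a 6.91-fold ratio of the mean CPM, and by 2.79 without LPS replicate 2. With MP alone it was higher by 0.97 ± 0.10 (adjusted p = 2.38e-06) in 3 of 3 libraries, short of the size threshold, which it passed with quantile normalization (1.01), with control replicate 3 left out (1.04) and with MP replicate 1 left out (1.01). In LPS-treated cells the change with MP was -0.21 ± 0.10 (adjusted p = 0.112), or -0.23 without LPS replicate 2.

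Tlr6, a partner of TLR2 on chromosome 5 (64953106 to 64960048, minus strand), moved less. It was at 15.5, 14.3 and 15.7 CPM in control, 12.3, 13.3 and 12.3 in MP, 26.4, 34.1 and 25.7 in LPS, and 21.7, 21.9 and 21.8 in LPS+MP. None of the 4 groups overlapped: MP was lowest, then control, LPS+MP and LPS. Tlr6 was higher with LPS by 0.87 ± 0.11 (adjusted p = 4.96e-06; 0.75 without LPS replicate 2). The value for LPS+MP against LPS was -0.37 ± 0.11 (adjusted p = 0.0156), or -0.25 (adjusted p = 0.0429) without that library. The difference of MP from control, at -0.24 ± 0.11, did not pass (adjusted p = 0.0917). Tlr1, the other partner of TLR2, rose with LPS by 2.66 ± 0.10 (adjusted p = 4.7e-12), from 24.9 ± 2.19 to 163 ± 19.9 CPM (SD, n = 3).

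Tlr5, the flagellin receptor on chromosome 1 (182954788 to 182976044, plus strand), was close to 0 in LPS-treated cells. It was at 10.9, 9.91 and 11.46 CPM in control, 9.56, 8.74 and 8.55 in MP, 0.714, 0.831 and 0.42 in LPS, and 0.115, 0.239 and 0.351 in LPS+MP. Every LPS and LPS+MP library was below 1 CPM and every other library above 8 CPM. Tlr5 fell with LPS, at -2.83 ± 0.15 (adjusted p = 1.53e-10; -2.91 without LPS replicate 2), and with both agents, at -3.25 ± 0.15 (adjusted p = 1.79e-11). At such low values the size of the change depends on the pseudocount: with 0.1 in place of 1 the changes were -3.89 and -5.08, and the ratios of mean CPM were 16.4-fold and 45.8-fold. LPS+MP cells were lower in Tlr5 than LPS cells at -0.42 ± 0.15 (adjusted p = 0.0363), but over the 15 alternatives the adjusted p ran from 0.00526 to 0.247, with 0.0774 without LPS replicate 2 (a change of -0.34); with a pseudocount of 0.1 the change was -1.19. The change with MP alone was -0.24 ± 0.15 (adjusted p = 0.209).

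Of the adaptors, Ticam2 changed most, and with each agent. It encodes TRAM, which links endosomal TLR4 to TRIF, and lies on chromosome 18 (46559155 to 46574533, minus strand). Its level was 8.54, 9.49 and 7.70 CPM in control, 30.6, 29.4 and 28.8 in MP, 38.6, 37.7 and 32.4 in LPS, and 33.4, 32.8 and 32.1 in LPS+MP. All 9 treated libraries were above 28 CPM and all 3 controls below 10 CPM. Ticam2 rose with MP by 1.68 ± 0.10 (adjusted p = 7.8e-09), with LPS by 1.96 ± 0.10 (adjusted p = 1.07e-10; 1.93 without LPS replicate 2) and with both by 1.82 ± 0.10 (adjusted p = 1.6e-10). Adding MP to LPS gave -0.14 ± 0.10 (adjusted p = 0.294; -0.11 without that library), and adding LPS to MP gave 0.14 ± 0.10 (adjusted p = 0.235). In GENCODE M21 Ticam2 shares exon sequence with Tmed7 on the same strand, so reads in it cannot be assigned to 1 gene. Tmed7, which encodes a cargo receptor of the secretory pathway, was at 70.7 ± 5.09 CPM in control, 73.5 ± 3.31 in MP, 85.7 ± 2.66 in LPS and 78.3 ± 2.50 in LPS+MP (SD, n = 3).

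Ticam1, which encodes TRIF, was higher in every treated group by less than 2-fold. It lies on chromosome 17 (56269319 to 56276786, minus strand). Its level was 33.7, 26.7 and 29.7 CPM in control, 38.8, 40.9 and 38.8 in MP, 44.4, 39.3 and 46.2 in LPS, and 48.1, 55.5 and 53.9 in LPS+MP. Control was lowest and LPS+MP highest without overlap, and MP and LPS overlapped. The changes were 0.39 ± 0.10 with MP (adjusted p = 0.00524), 0.52 ± 0.10 with LPS (adjusted p = 0.000271; 0.58 without LPS replicate 2) and 0.79 ± 0.10 with both (adjusted p = 3.24e-06). LPS+MP was higher than LPS by 0.27 ± 0.10 (adjusted p = 0.0404), and at 0.21 (adjusted p = 0.0775) without LPS replicate 2.

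Myd88, the adaptor shared by most Toll-like receptors and the interleukin 1 receptors, was higher in both groups that received LPS. On chromosome 9 (119335934 to 119341411, minus strand), it was at 51.3, 46.5 and 45.9 CPM in control, 44.9, 47.1 and 55.8 in MP, 82.9, 65.7 and 67.4 in LPS, and 71.3, 76.0 and 71.3 in LPS+MP. The LPS and LPS+MP groups overlapped and were both above the control and MP groups, which overlapped. Myd88 was higher with LPS by 0.57 ± 0.10 (adjusted p = 0.000147; 0.63 without LPS replicate 2) and with both agents by 0.59 ± 0.10 (adjusted p = 8.39e-05). The changes with MP were 0.03 ± 0.10 without LPS (adjusted p = 0.819) and 0.02 ± 0.10 with it (adjusted p = 0.878; -0.04 without LPS replicate 2). Tirap, the sorting adaptor that brings MyD88 to the membrane (chromosome 9, 35184551 to 35200291, minus strand), had the narrowest range of the 10 genes, 16.3 to 21.03 CPM over the 12 libraries. It did not pass in any of the 5 comparisons, with adjusted p from 0.095 to 0.659. Its change was 0.16 with LPS and -0.06 in LPS+MP against LPS, and 0.15 and -0.05 without LPS replicate 2. Myd88 and Tirap overlap exons of Acaa1a and Srpr on the opposite strand. Acaa1a was at 55.8 ± 2.06, 80.9 ± 4.31, 84.5 ± 12.8 and 85.8 ± 3.05 CPM in control, MP, LPS and LPS+MP. Srpr was at 224.5 ± 18.8, 222.5 ± 1.43, 321 ± 15.1 and 337 ± 2.45 CPM. Their part in the Myd88 and Tirap values was not tested.

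The design allows the change with MP to be compared between cells without and with LPS, as an interaction (LPS+MP minus LPS, less MP minus control). It was called for 2 of the 10 genes, Ticam2 and Tlr2, against 4.7% of all genes, and no other member had an adjusted p under 0.05, a level that 22% of all genes reached. For Ticam2 the interaction was -1.82 ± 0.14 (adjusted p = 6.07e-07): the mean level was 3.45-fold higher in MP than in control cells, and 32.8 ± 0.645 CPM in LPS+MP against 36.2 ± 3.31 in LPS cells. For Tlr2 it was -1.18 ± 0.14 (adjusted p = 2.6e-05), from a 1.97-fold higher level in MP than in control cells. Without LPS replicate 2 the values were -1.79 and -1.20. For Tlr4 the changes with MP were of the same sign in both settings, -0.61 without and -0.93 with LPS, and the interaction did not pass (-0.32 ± 0.15, adjusted p = 0.136; -0.18 without LPS replicate 2). For Cd14, Ly96, Tlr5, Tlr6, Ticam1, Myd88 and Tirap the interaction lay between -0.29 and 0.14, with adjusted p from 0.338 to 0.97, and between -0.18 and 0.05 without LPS replicate 2.

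**Figure D3:**
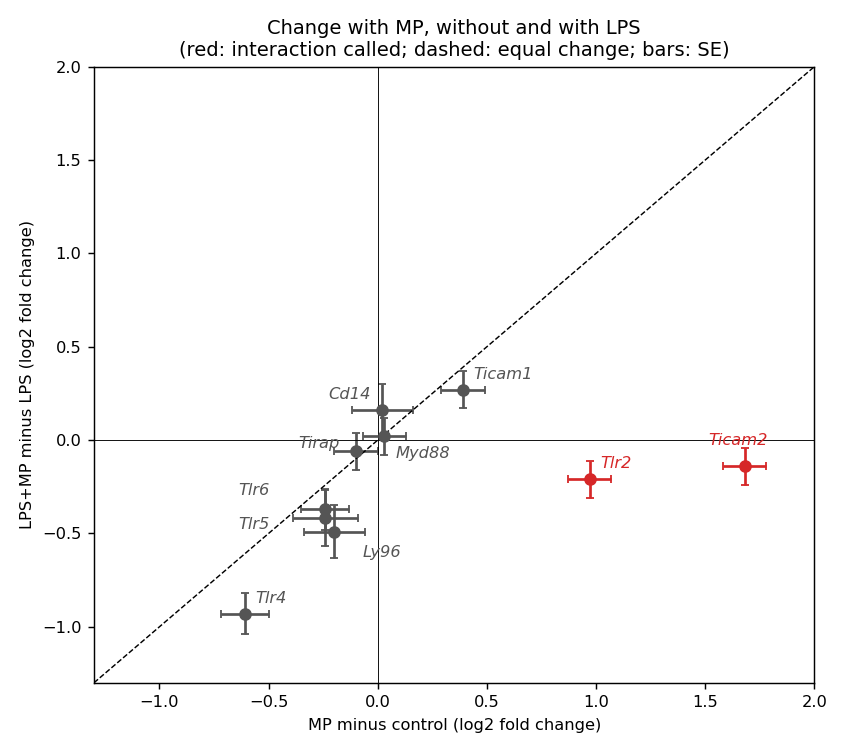
Change with MP in cells without LPS (horizontal axis) against the change with MP in LPS-treated cells (vertical axis), both log2 fold changes with their SE, for the 10 genes; the dashed line marks equal change. Ticam2 and Tlr2, in red, lie far to the right of the line at 1.68 and 0.97 without LPS and just below 0 with it, and Tlr4 lies at -0.61 and -0.93.

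Levels of different genes were compared per kb of the transcript that the table names, with lengths from GENCODE M21. In control cells Cd14 was highest, at 291 ± 23.9 CPM per kb (SD, n = 3). Tlr2 (33.6), Myd88 (24.5), Tlr4 (18.1) and Ly96 (17.0) followed, then Ticam1 (10.0), Tirap (7.91), Tlr6 (4.12), Tlr5 (3.36) and Ticam2 (2.04). Cd14, whose product hands on LPS, and Ly96, whose product binds it on TLR4, thus had very different transcript levels beside Tlr4. The ratio of Cd14 to Tlr4 per kb was 15.8, 15.3 and 17.1 in the control libraries, 24.7, 27.4 and 23.2 in MP, 72.1, 31.8 and 68.3 in LPS, and 114, 116 and 120 in LPS+MP. No 2 groups overlapped, and the lowest LPS value was that of LPS replicate 2. The ratio of Ly96 to Tlr4 per kb was 0.944 ± 0.158 in control, 1.23 ± 0.0596 in MP, 2.60 ± 0.0902 in LPS and 3.54 ± 0.336 in LPS+MP (SD, n = 3). Ticam2 stood at 0.206 ± 0.0409 of Ticam1 per kb in control, and at 0.534 ± 0.0258, 0.60 ± 0.0929 and 0.446 ± 0.0414 in MP, LPS and LPS+MP. What the exon sequence shared with Tmed7 does to the Ticam2 level per kb, and so to its rank and ratio, was not tested. These ratios are descriptions with no test, and in a culture less transcript per cell and fewer cells that hold it cannot be told apart.

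Genes that act beside the receptors were taken in lists. Among the 6 tested of the other Toll-like receptors (Tlr1, Tlr3, Tlr7, Tlr8, Tlr9 and Tlr13), 3 fell with MP alone and 0 rose (median -0.61), where 3.67% of all genes were called. They were Tlr13 (-1.70 ± 0.12), Tlr7 (-1.17 ± 0.10) and Tlr8 (-1.06 ± 0.18), which sense RNA in endosomes, with adjusted p of 7.4e-08, 4.88e-07 and 0.000275. The same 3 fell in LPS+MP against LPS cells (4.52% of all genes called), and all 6 were lower at an adjusted p under 0.05, against 35.2% of all genes (median -0.97). In that comparison Tlr8 stood at -2.80 ± 0.18 (adjusted p = 1.69e-08; -2.53 without LPS replicate 2), and Tlr7 at -1.13 ± 0.10. Without LPS replicate 2 Tlr7 came just short of the size threshold, which left 2 calls. The interaction was called for 2 of the 6, where 4.7% of all genes were. Tlr8 was at -1.74 ± 0.25 (adjusted p = 0.000176; -1.47 without LPS replicate 2), with a fall under MP both without and with LPS. Tlr1 was at -1.22 ± 0.14 (adjusted p = 2.41e-05; -1.14 without LPS replicate 2).

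Of 12 tested genes for LPS transfer and cooperating receptors, 3 rose and 1 fell with LPS (median 0.66), where 16.3% of all genes were called. The kinase gene Syk rose by 2.23 ± 0.08 (adjusted p = 1.71e-12). Casp4, whose product, caspase-11, senses LPS in the cytosol, rose by 2.38 ± 0.10 (adjusted p = 2.69e-11). Trem1, an amplifier of inflammatory signalling, rose by 2.28 ± 0.11, and the phagocytic receptor gene Trem2 fell, at -1.95 ± 0.12. In LPS+MP against LPS cells 3 of the 12 fell and 0 rose (median -0.30), where 4.52% of all genes were called. They were Trem1 (-1.13 ± 0.11), the complement receptor gene Itgam (-1.16 ± 0.08) and the scavenger receptor gene Cd36 (-1.10 ± 0.20, from 3.15 ± 0.337 to 0.951 ± 0.281 CPM). All 7 calls were also made without LPS replicate 2.

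Of 10 tested genes for folding and transport of Toll-like receptors, limma called 0 with MP, 0 with LPS and 0 in LPS+MP against LPS, where 3.67%, 16.3% and 4.52% of all genes were called. In each comparison 6 of the 10 had an unadjusted p under 0.05, against 47.5%, 65.6% and 44.5% of all genes, so the list was close to the whole table. Hsp90b1, the chaperone gp96 of Toll-like receptors, was lower with MP (-0.70 ± 0.10, adjusted p = 9.55e-05) and in LPS+MP against LPS (-0.60 ± 0.10, adjusted p = 0.000409; -0.47 without LPS replicate 2). Its level was 968 ± 95.8 CPM in control, 593 ± 29.3 in MP, 883 ± 151 in LPS and 577 ± 28.7 in LPS+MP. Unc93b1, which escorts endosomal receptors, was higher with LPS by 0.62 ± 0.10 (adjusted p = 4.52e-05; 0.76 without LPS replicate 2).

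Downstream of the adaptors, the counts with LPS stand beside 16.3% of all genes called. Of 16 tested genes of the MyD88 arm 1 rose with LPS, Irak2, a kinase recruited by MyD88 (1.34 ± 0.08, adjusted p = 4.48e-10), and the median was 0.12. Without LPS replicate 2 the count was 2, with Rnf31, which encodes a ubiquitin ligase subunit, at 1.14 in place of 0.96, and the median was 0.00. Of 14 genes of the TRIF arm 3 rose with LPS and 0 fell (median 0.51): the nucleic acid sensor Zbp1 (4.59 ± 0.17), the kinase Ikbke (1.95 ± 0.08) and the ubiquitin ligase Peli1 (1.84 ± 0.09). The share called was below that of all genes in the MyD88 arm and above it in the TRIF arm. Counts this small do not set either arm apart from the whole table. With MP alone, where 3.67% of all genes were called, limma called 0 genes in either arm, with 7 and 6 at an unadjusted p under 0.05 (47.5% of all genes). Of 19 negative regulators 5 rose and 1 fell with LPS (median -0.02). Irak3, an inhibitory relative of the IRAK kinases, rose by 3.06 ± 0.08 from 23.8 ± 0.476 to 206 ± 14.4 CPM, and Tnfaip3, which encodes the ubiquitin-editing enzyme A20, by 2.95 ± 0.09. Il1rl1, the interleukin 33 receptor gene, fell with LPS (-3.00 ± 0.13) and with MP alone (-1.48 ± 0.13, adjusted p = 5.58e-07). It was the 1 of 19 called with MP, against 3.67% of all genes. Against LPS cells, LPS+MP cells had 1 of 19 called (4.52% of all genes), Traf4, which rose by 1.34 ± 0.21. Traf4 was at 3.47, 1.35 and 3.61 CPM in the LPS libraries and 9.51, 7.65 and 7.67 in LPS+MP, and its change was 1.03 without LPS replicate 2, at the edge of the size threshold. Without that library Socs1, an inhibitor of cytokine signalling, was also called there, at -1.04 in place of -0.68 (adjusted p = 0.0521 with it).

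Target genes commonly assigned to the 2 arms rose with LPS, 7 of 7 tested for MyD88 (median 4.44) and 7 of 7 for TRIF (median 5.64), where 16.3% of all genes were called. Both lists were chosen as targets of LPS signalling and with earlier results of these data known. Their rise with LPS was thus to be foreseen and is no test of either arm. The counts with MP alone and in LPS+MP against LPS come from the same lists. They are descriptions and do not test 1 arm against the other. With MP alone, where 3.67% of all genes were called, 3 of 7 MyD88 targets rose, Cxcl2, Ptgs2 and Nfkbiz, by 2.51 ± 0.11, 2.11 ± 0.12 and 1.23 ± 0.10. Of the TRIF targets 2 of 7 rose with MP, Cxcl10 by 1.08 ± 0.15 (0.347 ± 0.228 to 1.83 ± 0.0466 CPM) and Ifit1 by 1.24 ± 0.20. Ifit1 went from 0.215 ± 0.130 to 1.92 ± 0.695 CPM. At such low values the size of both changes depends on the pseudocount. In LPS+MP against LPS cells 3 MyD88 targets rose, Cxcl2, Tnf and Il6 (1.56 ± 0.11, 1.15 ± 0.09 and 1.05 ± 0.16; median of the list 0.91), where 4.52% of all genes were called. Without LPS replicate 2 these changes were 1.61, 1.21 and 1.18. At an adjusted p under 0.05 and any size, 6 of the 7 went up there and 1 went down, against 35.2% of all genes. The 1 that was lower was Il1b, at -0.32 ± 0.10 (adjusted p = 0.0256; -0.30 without LPS replicate 2). For the TRIF targets limma called 0 of 7 there, with 4 at an unadjusted p under 0.05 (44.5% of all genes; median -0.02).

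**Figure D4:**
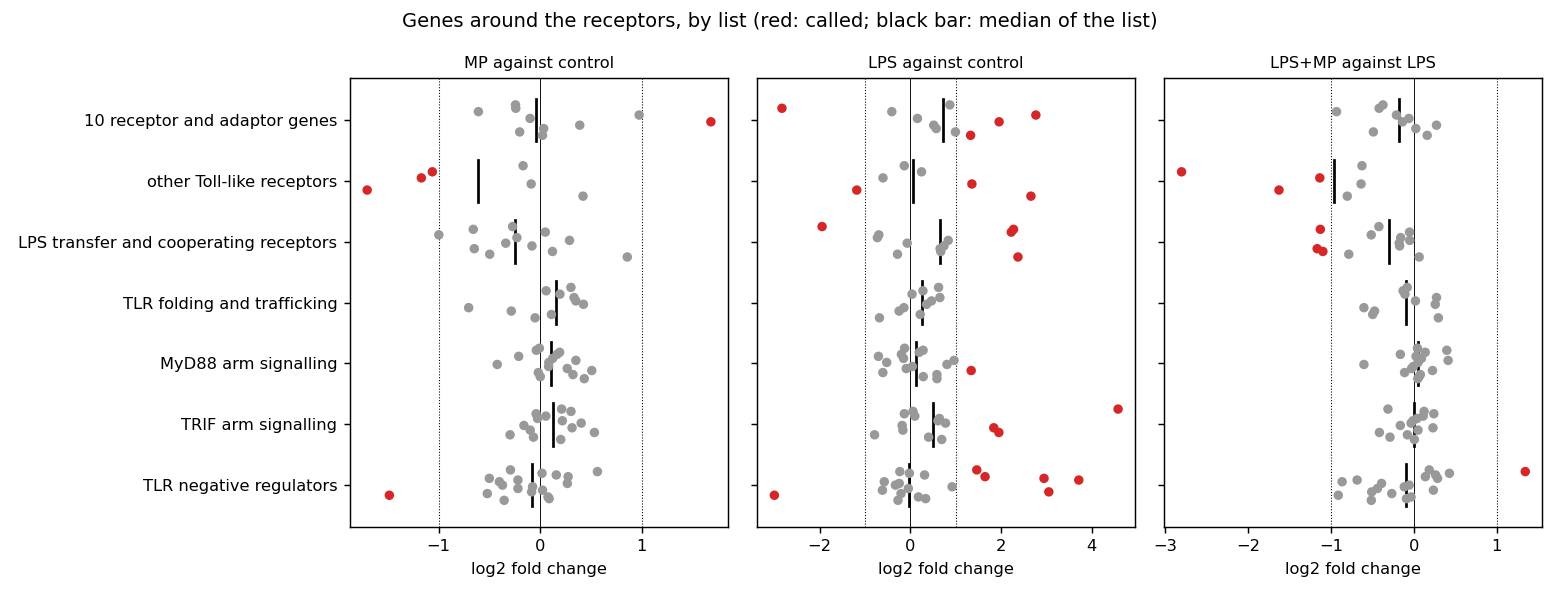
Log2 fold changes (horizontal axes) of the single genes of 7 lists (rows, the 10 receptor and adaptor genes first) in 3 comparisons (panels), called genes in red and the median of each list as a black bar. The median of the other Toll-like receptors lies left of 0 with MP alone and in LPS+MP against LPS, at -0.61 and -0.97, and the folding genes lie within 1 of 0.

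Over the 12 libraries, the genes whose log2(CPM + 1) followed 4 of the members most closely were listed by Pearson r, as a description, since the libraries share the same 4 groups. For Tlr4 they were Galnt7 (0.985), Cysltr1 (0.982) and Casd1 (0.981). Cysltr1, a leukotriene receptor gene, was at 14.5 ± 1.16, 5.21 ± 0.752, 6.395 ± 1.86 and 1.67 ± 0.173 CPM in control, MP, LPS and LPS+MP. For Tlr2 they were Art3, the closest, Slc23a2 (0.995) and Adora2b (0.994), the last an adenosine receptor gene at 1.56 ± 0.268, 5.48 ± 0.546, 45.6 ± 7.77 and 34.5 ± 5.51 CPM. For Cd14 they were Il1f6, 2310042D19Rik and Edem2, and for Myd88 Ankrd16, Arl6ip5 and Rnf135, with r from 0.973 to 0.992.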

How the data were processed

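Values came from 1 deposited table of 11762 genes and 12 libraries of J774A.1 cells. The tools named in the submitters' processing notes, whose roles are not stated, are edgeR, DESeq2 and HTSeq beside TopHat2 2.1.1, FastQC 11.5 and Trimmomatic 0.36. Per the labels' protocols the kit was directional. The strand setting of the authors' counting, the genome build and the gene models were each not given in the sources used here. Of 11671 gene IDs held by GENCODE M21 (GRCm38), 11666 overlapped their gene there.

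The deposited columns are headed RPKM, but each sums to between 998867 and 999273, so they were read as CPM, not divided by gene length. The authors' logCPM column, read as mean log2 CPM, differed from the log2 mean of the columns with an SD of 0.2, and of 0.988 if the values were multiplied by length. In 2 libraries every low value was a whole multiple of 1 step (tolerance 0.05 of a step), and in the others 0.168 to 0.938 of them were. So no counts were recovered, depth is unknown, and no count model was fitted.

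Values were taken as log2(CPM + 1) after removing 17 genes under 1 CPM in all but 2 or fewer libraries, and 11745 genes were fitted in 1 model of 4 group means with limma 3.58.1 (R 4.3.3) and a variance trend. The procedure was tested on simulated data. Benjamini-Hochberg adjustment was made over all genes of each comparison. A gene was called at an adjusted p under 0.05 and a log2 change over 1, the thresholds of the series. Named genes were the 10 members, per list up to 4 called genes in order of adjusted p, or the 2 of highest mean level where none was called, and the 3 genes most correlated with each of 4 members; not all are described. The members and lists were chosen with earlier results of these data known. Alternatives were another pseudocount, other filters, 2 scalings, a replicate block, no trend, fewer groups, no fold threshold and each library left out. The main model did not use the replicate numbers to pair the samples.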

Additional observations from a re-analysis of the deposited data

Results flagged for a closer look

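The change with MP differed between cells without and with LPS for 2 of the 10 genes, by the interaction test of limma adjusted over all genes. For Ticam2 the difference was -1.82 (log2), with all 3 MP libraries above all 3 control libraries and the LPS+MP and LPS libraries overlapping. For Tlr2 it was -1.18, with the same pattern of overlap. Over all genes tested, 59% did not overlap between MP and control, and 43.8% did not between LPS+MP and LPS.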

How the results depend on the processing

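All 15 calls of the 10 genes over the 6 contrasts were kept under every alternative run. Of the 45 values not called, 4 were called under at least 1 alternative other than dropping the fold threshold. The number of genes called with MP alone was 1, and 2 with quantile normalization, 1 to 2 with a library left out and 4 with no fold threshold. For LPS+MP against LPS it was 0, and 1 with a pseudocount of 0.1, 0 to 1 with a library left out and 5 with no fold threshold. With no fold threshold it was 9 in place of 4 for LPS, 9 in place of 5 for LPS+MP against control, and 8 in place of 3 for LPS+MP against MP. Over the whole table the calls without a fold threshold were 4570 in place of 431 (MP), 7297 in place of 1920 (LPS), 7786 in place of 2448 (LPS+MP against control), 4138 in place of 531 (LPS+MP against LPS), 6527 in place of 1597 (LPS+MP against MP) and 2583 in place of 552 (interaction); a pseudocount of 0.1 gave 807 in place of 531. Signs changed for 8 of the uncalled values. For MP against control they were Cd14 (-0.01 with median-ratio scaling, -0.02 to 0.09 with a library left out) and Myd88 (-0.00 with median-ratio scaling, -0.06 to 0.10). For LPS+MP against LPS they were Cd14 (-0.07 to 0.31 with a library left out), Myd88 (-0.04 to 0.13) and Tirap (0.03 with quantile normalization). For the interaction they were Cd14 (-0.09 to 0.29), Myd88 (0.02 with quantile normalization, 0.06 with median-ratio scaling, -0.07 to 0.09) and Tirap (-0.02 to 0.09). Median-ratio scaling moved the median of all genes from -0.10 to -0.00 in LPS+MP against control and from -0.14 to -0.01 in LPS+MP against MP, and changed no call of the 10 genes there. The replicate block left the numbers of calls at 1, 4, 5, 0, 3 and 2 in the order above with the interaction last. Residuals of same-numbered libraries correlated at a median of 0.0178 (-0.247 to 0.158 over 18 pairs). The best mean correlation was with the same number for 7 of 12 libraries. These values do not settle whether same-numbered libraries were prepared together. Leaving LPS replicate 2 out of the spread in comparisons without LPS cells, chosen after seeing the data, gave 1, 5 and 3 calls. Leaving it out for the wider lists was chosen then too. Depth is unknown and limits Tlr5, whose LPS and LPS+MP values are under 1 CPM.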

Other observations

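Promoter windows of 250 bases were read for 6 of the 10 genes. Beside those of Tlr2 and Tlr5, 1 of the windows of Tlr6 held 2 overlapping matches to the interferon element and 1 to C/EBP. The window of Myd88 held 1 match to the interferon element (GAAAGCGAAA, 40 to 31 bases before the RefSeq start), which lies 1393 bases inside the start of the deposited table. The windows of Ticam1 and Tirap held none of the 5 motifs.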
